A study of Mus musculus with 8 samples.

Results

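The genes described here encode the nuclear-encoded subunits of the mitochondrial respiratory chain and the ATP synthase, together with the assembly factors of complex I. They were chosen by symbol: all genes starting with Nduf, Uqcr, Cox4 to Cox8 or Atp5, the 4 genes Sdha, Sdhb, Sdhc and Sdhd, and Cyc1, without pseudogene symbols. The rule used no expression value, although it was set with earlier results of these data known. It gave 88 of the 22180 genes measured: 34 of complex I, 8 complex I assembly factors, 4 of complex II, 8 of complex III, 17 of complex IV and 17 of complex V. Expression was measured on Affymetrix arrays in tumour cells of mice with 1 disrupted copy of Patched1, the Hedgehog receptor gene, which develop medulloblastoma of the cerebellum. All animals carried Patched1+/- from a CD1 parent and the Sox2eGFP reporter from a B6 parent, all were irradiated as newborns (3 Gy), and tumours were taken at signs of disease, at an age of over 70 days. White and red blood cells were removed by their surface proteins CD45 and Ter119, and the rest were sorted into a fraction with reporter signal, called Sox2-positive here, and a fraction without it, called Sox2-negative. Each array held RNA pooled from 3 tumours, with 4 pools of each fraction, numbered 1 to 4 in the labels. Values are log2 expression, on which a difference of 1 is a 2-fold change, and differences are Sox2-positive minus Sox2-negative.

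The respiratory chain sits in the inner mitochondrial membrane. Complex I takes electrons from NADH and complex II from succinate, ubiquinone carries them to complex III, cytochrome c carries them on to complex IV, and complex IV passes them to oxygen. Complexes I, III and IV pump protons, and complex V, the ATP synthase, lets them flow back to make ATP. Complex II is also an enzyme of the tricarboxylic acid cycle. A few subunits are encoded in mitochondrial DNA and the rest in the nucleus, and nuclear genes of the chain are known targets of the transcription factor NRF1 and of the coactivator PGC-1alpha. In the cerebellum, granule neuron progenitors, from which these tumours arise, are known for their use of glycolysis while they divide.

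The sort and the arrays were checked first. Sox2 was at 5.67, 6.07, 6.36 and 5.68 in Sox2-positive pools 1 to 4 and at 4.05, 4.60, 4.49 and 4.04 in Sox2-negative pools 1 to 4. The Sox2 ranges of the fractions did not overlap. Correlations between arrays over the 88 genes ran from 0.99 to 0.995 among Sox2-positive pools, from 0.982 to 0.992 among Sox2-negative pools and from 0.976 to 0.993 between the fractions. Of 11 granule neuron progenitor genes, 11 were lower in Sox2-positive pools, and their mean level was 7.51 to 7.84 there and 8.48 to 8.78 in Sox2-negative pools. Against the label of medulloblastoma cells, the lineage genes of this tumour were thus measured in both fractions, at a lower level in the Sox2-positive one.

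Respiratory chain genes differed little between the fractions. Uqcrb, a subunit of complex III, and Sdha, the catalytic subunit of complex II, were higher in Sox2-positive cells, and Atp5g1, which encodes the membrane ring subunit of complex V, was lower. These 3 were the members past an adjusted p of 0.05 (limma, Benjamini-Hochberg over all 22180 genes), 2 higher and 1 lower. Over all genes 8.47% passed, 5.96% higher and 2.52% lower, so the members' share, 3.41%, lay below that background in this fit. In a fit with the replicate number as a block, described below, the shares were close, 10.2% of members and 10.6% of all genes. The median log2 difference over the 88 genes was 0.07, against -0.03 over all genes tested, and 61 of 88 members (69.3%) had a difference above 0, against 41.3% of all genes. At an unadjusted p under 0.05 the count was 23 of 88 members (26.1%, against 20.1% of all genes), 20 higher (10.4% of all genes) and 3 lower (9.69% of all genes). Of the 88, 10 had all 4 Sox2-positive values above all 4 Sox2-negative values (7.63% of all genes) and 3 the reverse (6.07%), together 14.8%, against 13.7% of all genes. The count of 20 fell to 9 without Sox2-positive pool 3 and to 13 without Sox2-negative pool 4. It rose to 24 without Sox2-negative pool 2 or without Sox2-negative pool 3. With the replicate block it was 26, with 3 lower, together 33% of members against 22.3% of all genes. Without Sox2-positive pool 3 the share of members at that p lay below that of all genes (12.5% against 17.5%), and it was close to it with quantile normalization (22.7% against 22%) and with dimmer genes left out (27.7% against 27.9%).

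The differences were small. The log2 differences of the 88 genes ran from -0.49 (Atp5g1) to 0.64 (Uqcrb). The half-width of the 95% interval was 0.23 at the median gene. For 77 of the 88 genes the interval lay within a 1.5-fold change either way, a share of 87.5% against 88% of all genes. For all 88 genes it lay within a 2-fold change. By complex, the median difference was 0.23 for complex III, 0.19 for complex II, 0.08 for complex I, 0.05 for complex V, 0.02 for complex IV and -0.01 for the complex I assembly factors. Since the values of each array were set to a common distribution, they carry no information on how much RNA a cell held.

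**Figure D1:**
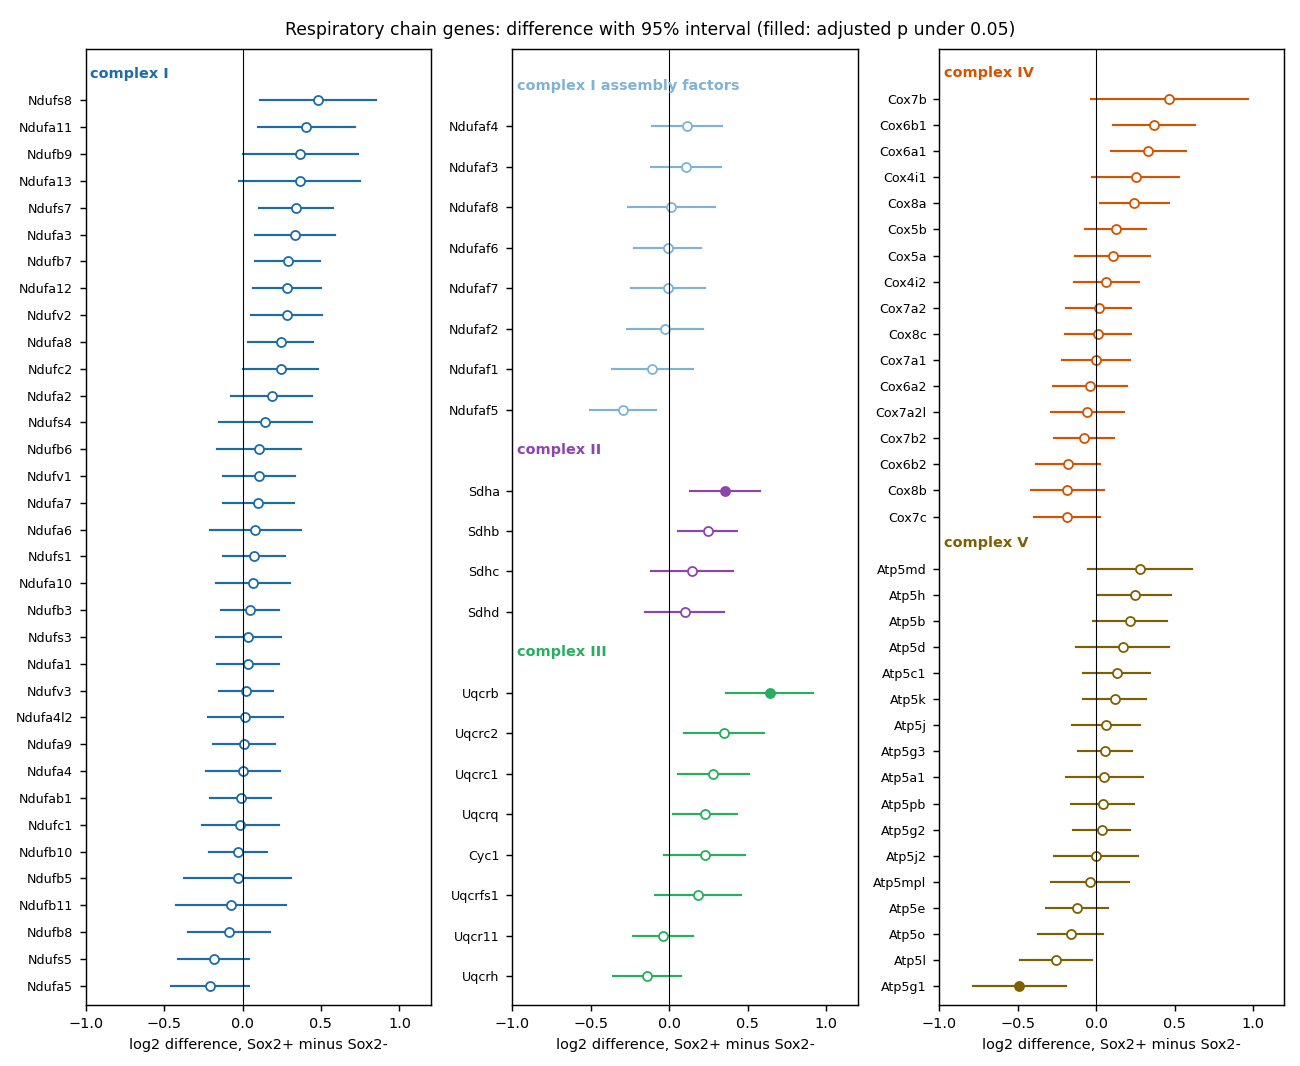
Log2 difference of each of the 88 genes (x axis, Sox2-positive minus Sox2-negative, 4 pools each) with its 95% interval from limma, by complex. Filled points, with an adjusted p under 0.05, are Uqcrb at 0.64, Sdha at 0.36 and Atp5g1 at -0.49, and most of the other intervals cross 0.

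The pools of a fraction did not share a level. For each array, the median over the 88 genes of the value minus that gene's mean over 8 arrays was 0.003, 0.01, 0.18 and 0.01 in Sox2-positive pools 1 to 4 and -0.10, 0.05, 0.03 and -0.10 in Sox2-negative pools 1 to 4. Sox2-positive pool 3 was the highest array, Sox2-negative pools 1 and 4 were the lowest, and the fractions overlapped, as Sox2-negative pools 2 and 3 lay above Sox2-positive pools 1, 2 and 4. Over all genes the same medians stayed between -0.03 and 0.02. Complex II was the group whose fractions did not overlap on this measure, with Sox2-positive pools at 0.06, 0.09, 0.25 and 0.08 and Sox2-negative pools at -0.25, -0.07, 0.03 and -0.12. Complex III had 0.003, 0.11, 0.30 and 0.06 in Sox2-positive pools, against -0.17, 0.06, 0.01 and -0.23 in Sox2-negative pools 1 to 4. Complex I, complex IV, complex V and the assembly factors overlapped as well.

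**Figure D2:**
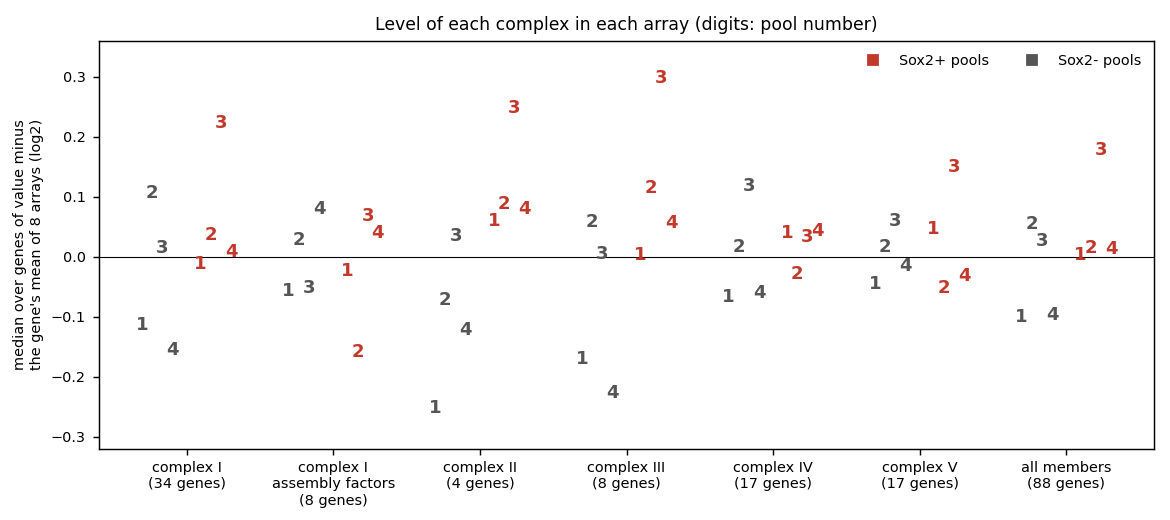
Level of each complex in each array (y axis: median over its genes of the log2 value minus the gene's mean over the 8 arrays); red digits are Sox2-positive pools, grey digits Sox2-negative pools. Sox2-positive pool 3 reaches 0.30 in complex III and 0.25 in complex II, Sox2-negative pools 1 and 4 are lowest in complexes I, II and III, and only complex II has no overlap between the fractions.

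Deviations of pools of the same number were weakly correlated over all genes (0.114 to 0.241), so the numbers were also used as pairs. The lowest value, that of number 2, did not exceed the highest between unlike numbers (0.161). With the replicate number as a block in the limma fit, 9 of the 88 members passed, 8 higher and 1 lower (10.2%), against 10.6% of all genes, 7.09% higher and 3.46% lower. The 6 members added were Cox7b, Uqcrc2, Cox6a1, Ndufa3, Ndufs7 and Ndufs8 (adjusted p = 0.0138 to 0.0494 with the block), each higher in 4 of 4 pairs. Within pairs, the median difference over the 88 genes was 0.11, -0.05, 0.19 and 0.08 in pairs 1 to 4. Pair 2 thus differed in sign from the other pairs, and 36 of 88 genes were higher in the Sox2-positive pool there, against 61, 66 and 55 in pairs 1, 3 and 4. In all 4 pairs, 22 genes were higher and 7 lower, 25% and 7.95% of the members, against 13.5% and 16.5% of all genes.

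Complex II, succinate dehydrogenase, had 1 member past the test and 3 that were not. Sdha, the flavoprotein that oxidizes succinate, was at 7.63, 7.65, 7.78 and 7.67 in Sox2-positive pools 1 to 4 and at 7.20, 7.56, 7.40 and 7.14 in Sox2-negative pools 1 to 4. Every Sox2-positive value lay above every Sox2-negative one, and the Sox2-positive pools were tighter. Sdha was 1.28-fold higher (log2 difference 0.36, SE 0.10, 95% interval 0.13 to 0.58, limma adjusted p = 0.0485). Its call ended without any 1 array other than Sox2-negative pool 2 (adjusted p = 0.0613 to 0.146). It also ended with quantile normalization, with arrays centred on their median and with a variance trend, and stayed with the replicate block (0.0368). Sdhb, the iron-sulfur subunit, was at 6.27, 6.40, 6.49 and 6.42 against 6.07, 6.08, 6.24 and 6.22, also without overlap, and differed by 0.24 on the log2 scale (95% interval 0.05 to 0.43, adjusted p = 0.122). The membrane anchors Sdhc and Sdhd had log2 differences of 0.14 (95% interval -0.12 to 0.41) and 0.10 (-0.15 to 0.35), and their fractions overlapped.

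The promoter of Sdha is shown because it held 3 matches to the binding motif of NRF1, 10 bases long with 1 free base, a count reached by 24 of 15358 protein-coding genes tested (0.156%) and by no other member searched. The RefSeq window (GRCm38.p6, chr13:74350191-74350490, minus strand) runs from 250 bases before to 50 after the transcription start, with the NRF1 matches in capitals. The matches read GCGCAGGCGC, GCGCAGGCGC and GCGCAAGCGC, where the sixth base is the free one, and begin 98, 55 and 10 bases before the start.
Sdha: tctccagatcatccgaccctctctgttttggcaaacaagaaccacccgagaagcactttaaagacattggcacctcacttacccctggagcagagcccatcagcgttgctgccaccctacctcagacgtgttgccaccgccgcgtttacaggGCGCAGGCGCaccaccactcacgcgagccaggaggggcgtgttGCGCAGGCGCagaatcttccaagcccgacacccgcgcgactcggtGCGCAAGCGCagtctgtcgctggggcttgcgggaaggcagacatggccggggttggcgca
The window of Sdhb (chr4:140961021-140961320, plus strand), shown as its partner subunit, held no NRF1 match and 1 match to CCGGAAG, the core bound by GABP and other ETS factors, in capitals.
Sdhb: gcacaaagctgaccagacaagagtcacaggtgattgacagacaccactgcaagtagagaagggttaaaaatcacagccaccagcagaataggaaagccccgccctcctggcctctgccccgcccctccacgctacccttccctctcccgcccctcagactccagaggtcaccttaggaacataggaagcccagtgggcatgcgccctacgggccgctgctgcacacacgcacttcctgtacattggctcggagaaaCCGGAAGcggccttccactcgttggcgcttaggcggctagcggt
These matches describe the letters of the windows and say nothing of whether a factor was bound in these cells.

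Complex III, which passes electrons from ubiquinol to cytochrome c, held the largest difference of any member. Its median difference was above that of the other complexes, except without Sox2-negative pool 4, where complex II had 0.198 and complex III 0.196. Uqcrb, a small subunit needed for the assembly of the complex, was at 9.42, 9.05, 9.49 and 9.10 in Sox2-positive pools 1 to 4 and at 8.42, 8.80, 8.82 and 8.46 in Sox2-negative pools 1 to 4. The fractions did not overlap, and Sox2-positive pools 1 and 3 were highest. Uqcrb was 1.56-fold higher (log2 difference 0.64, SE 0.13, 95% interval 0.36 to 0.92, limma adjusted p = 0.00605), and it passed in each of 15 alternative fits (adjusted p = 0.00352 to 0.0271). A further probe set that the annotation gave to Uqcrb together with a predicted gene was not used, so a share of signal from a near-identical copy cannot be told apart.

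The other members of complex III lay between -0.14 and 0.35. Uqcrc2, a core subunit, was at 8.60, 8.82, 9.05 and 8.66 against 8.28, 8.57, 8.59 and 8.30. Its fractions did not overlap, by a narrow margin, and its log2 difference was 0.35 (adjusted p = 0.096, 0.025 with the replicate block). Uqcrc1, the other core subunit, differed by 0.28 (adjusted p = 0.135) and Uqcrq by 0.23 (0.184). The intervals of the nuclear-encoded catalytic subunits crossed 0. Cyc1, which hands electrons to cytochrome c, differed by 0.23 (95% interval -0.03 to 0.48) and Uqcrfs1, the iron-sulfur protein, by 0.18 (-0.09 to 0.45). Uqcrh, the hinge subunit, and Uqcr11 had differences of -0.14 and -0.04. Of the 8 members, 5 were higher in all 4 pairs of equal number (62.5%, against 13.5% of all genes). Uqcrh was lower in all 4 pairs (12.5% of these members, against 16.5% of all genes).

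Complex I, the largest complex of the chain, had 0 of 34 subunits past the adjusted test, against 8.47% of all genes. At an unadjusted p under 0.05 in limma it had 10 (29.4%, against 20.1% of all genes). All 10 had a positive difference, against 10.4% of all genes that were higher at that p. The 6 measured core subunits encoded in the nucleus had a median of 0.19, and the 28 accessory subunits had a median of 0.06. Ndufs7, which holds the last iron-sulfur cluster before ubiquinone, was at 10.58, 10.72, 10.74 and 10.61 in Sox2-positive pools, against 10.09, 10.53, 10.49 and 10.18 in Sox2-negative pools 1 to 4. Its fractions did not overlap, and it differed by 0.34 on the log2 scale (95% interval 0.10 to 0.58, adjusted p = 0.0801, 0.0354 with the replicate block). It also passed with array weights (0.0425) and without Sox2-negative pool 2 (0.0374). Ndufs8, another iron-sulfur subunit, had the largest difference of the complex, 0.48 (95% interval 0.11 to 0.85, adjusted p = 0.114, 0.0494 with the block). Its values were 7.66, 7.87, 8.26 and 7.87 against 7.46, 7.83, 7.52 and 6.93, and Sox2-negative pool 2 lay above Sox2-positive pool 1. Without Sox2-negative pool 2 its adjusted p was 0.0392.

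Differences were not of 1 size over the nuclear-encoded core subunits. Ndufv2 differed by 0.28 (adjusted p = 0.135), whereas Ndufv1, the NADH-binding subunit, differed by 0.10 (95% interval -0.12 to 0.33), Ndufs1 by 0.07 (-0.13 to 0.27) and Ndufs3 by 0.04 (-0.17 to 0.24). Among accessory subunits, Ndufa11 differed by 0.41 (adjusted p = 0.115), and its call was made without Sox2-negative pool 2 (0.0335). The second, dimmer probe set of Ndufa11 had a difference of -0.14, and the mean of both had 0.13. Ndufa3 (0.33), Ndufb7 (0.29) and Ndufa8 (0.24) had fractions that did not overlap, and Ndufa8 had 0.09 as the mean of both its probe sets. At the other end, Ndufa5 and Ndufs5 had differences of -0.21 (adjusted p = 0.346) and -0.18 (0.362). Ndufa4, named for complex I and now assigned to complex IV, was at 7.36, 7.06, 7.29 and 7.31 against 7.11, 7.51, 7.27 and 7.11, a difference of 0.00 (95% interval -0.23 to 0.24). Its hypoxia-induced relative Ndufa4l2, also a pericyte marker, differed by 0.02 (-0.22 to 0.26).

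The 8 assembly factors, which build complex I and are not part of it, had a median of -0.01 and no member past the test. Their largest difference was that of Ndufaf5, at 5.15, 5.15, 5.14 and 5.28 in Sox2-positive pools, against 5.40, 5.69, 5.30 and 5.50 in Sox2-negative pools. All Sox2-negative values lay above all Sox2-positive ones, and the gene differed by -0.29 on the log2 scale (95% interval -0.50 to -0.08, adjusted p = 0.0873). Ndufaf4 and Ndufaf3 differed by 0.11 each, and Ndufaf1 by -0.11. Ndufaf5 lay at a level where probe sets may sit near background, as described below.

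Complex IV, cytochrome c oxidase, had 0 of 17 members past the test. Cox7b had the largest difference, 0.47, and also the widest spread, at 10.03, 9.13, 10.16 and 9.29 in Sox2-positive pools, against 9.32, 8.99, 9.66 and 8.77 in Sox2-negative pools 1 to 4. Pools 1 and 3 were high and pools 2 and 4 low in both fractions, so that the adjusted p was 0.29 without the replicate block and 0.0138 with it. The second, dimmer probe set of Cox7b had a difference of -0.39, and the mean of both had 0.04. Cox6b1, on the side of the complex where cytochrome c docks, was at 6.42, 6.82, 7.09 and 6.68 against 6.36, 6.39, 6.39 and 6.40, with no overlap and a log2 difference of 0.37 (adjusted p = 0.0872, 0.016 without Sox2-positive pool 1). Cox6a1 differed by 0.33 (adjusted p = 0.0907, 0.0338 with the block and 0.0363 without Sox2-negative pool 3), and Cox8a by 0.24 (0.192), without overlap. The margin of Cox8a was narrow, with 9.096 in Sox2-positive pool 1 and 9.092 in Sox2-negative pool 2. Cox7c had the lowest difference, -0.18 (adjusted p = 0.326).

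Several subunits of complex IV have a second gene used in muscle, lung or testis, and these genes showed no difference past the test. Cox4i1, the broadly used form of subunit 4, differed by 0.25 (95% interval -0.02 to 0.53) and Cox4i2, the form of lung and low oxygen, by 0.07 (-0.14 to 0.28). Cox6a2, the heart and muscle form, differed by -0.04 (-0.28 to 0.20) where Cox6a1 differed by 0.33. Cox7a1, the muscle form, and Cox7a2 differed by 0.00 and 0.02. Cox8b and Cox8c differed by -0.18 and 0.01 and Cox7b2 by -0.08. Cox6b2, the testis form, was at 5.34 ± 0.14 in Sox2-positive pools, against 5.51 ± 0.08 in Sox2-negative pools (mean ± SD, n = 4 each), without overlap, and its difference of -0.18 did not pass (adjusted p = 0.328). As a guide to dim values, 1394 genes for receptors of smell and pheromones (Olfr and Vmn symbols), taken as not expressed in the cerebellum, had quartiles of 4.16, 4.95 and 5.795. Both means of Cox6b2, Cox7a1, Cox7b2, Cox8b, Cox8c and Ndufa4l2 lay under the upper quartile, where a difference can be understated.

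Complex V, the ATP synthase, had 0 members higher and 1 lower past the test. Atp5g1, 1 of 3 genes for the same mature ring subunit c, had 4.80, 4.97, 4.74 and 5.06 in Sox2-positive pools 1 to 4, against 5.39, 5.79, 5.25 and 5.08 in Sox2-negative pools 1 to 4. The fractions did not overlap, although Sox2-negative pool 4 lay only 0.02 above Sox2-positive pool 4. Atp5g1 fell by 0.49 on the log2 scale (SE 0.14, 95% interval -0.78 to -0.19, limma adjusted p = 0.0433, 0.024 with the replicate block). The call ended when pool 1, 2 or 3 of either fraction was left out (adjusted p = 0.0504 to 0.126), with quantile normalization (0.0754) and with arrays centred on their median (0.0567). Both means of Atp5g1 lay under the upper quartile of the receptor genes.

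The other genes for subunit c did not pass the test. Atp5g2 was at 9.58, 9.38, 9.59 and 9.46 against 9.41, 9.48, 9.47 and 9.50, a difference of 0.04 (95% interval -0.14 to 0.22). Atp5g3 was at 6.45, 6.43, 6.46 and 6.36 against 6.30, 6.36, 6.42 and 6.38, a difference of 0.06 (-0.11 to 0.23). The log2 difference of Atp5g1 minus that of Atp5g2 was -0.53 (exact permutation test over the 8 arrays, two-sided p = 0.0857, adjusted over 2 pairs 0.0857), and minus that of Atp5g3 it was -0.55 (exact p = 0.0286, the smallest that 4 against 4 arrays allow, adjusted 0.0571). Neither pair passed after adjustment, and the pairs were chosen after the values of Atp5g1 were seen. Of the catalytic core, Atp5b (beta) differed by 0.22 (95% interval -0.02 to 0.45) and Atp5a1 (alpha) by 0.05 (-0.19 to 0.30). Atp5md and Atp5h had the largest positive differences, 0.28 (adjusted p = 0.346) and 0.25 (0.213), and Atp5l had -0.25 (0.196). The second, dimmer probe set of Atp5h had -0.05, and the mean of both had 0.10.

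The promoter window of Atp5g1 is shown as that of the member that fell (RefSeq, GRCm38.p6, chr11:96075582-96075881, minus strand). In capitals are its 5 matches to CCAAT, the core bound by NF-Y, read on both strands, of which a pair shares bases as CCAATTGG. A window with 5 or more matches was found for 58 of 15358 protein-coding genes tested (0.378%), 2 of them members.
Atp5g1: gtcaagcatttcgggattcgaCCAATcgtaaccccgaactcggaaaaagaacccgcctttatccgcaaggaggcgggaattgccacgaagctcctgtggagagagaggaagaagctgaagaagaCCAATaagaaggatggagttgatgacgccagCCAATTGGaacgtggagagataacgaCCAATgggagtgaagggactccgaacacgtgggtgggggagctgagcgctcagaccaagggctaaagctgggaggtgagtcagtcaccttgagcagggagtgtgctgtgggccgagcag
It held no NRF1 match, whereas the windows of Atp5g2 and Atp5g3 did.

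**Figure D3:**
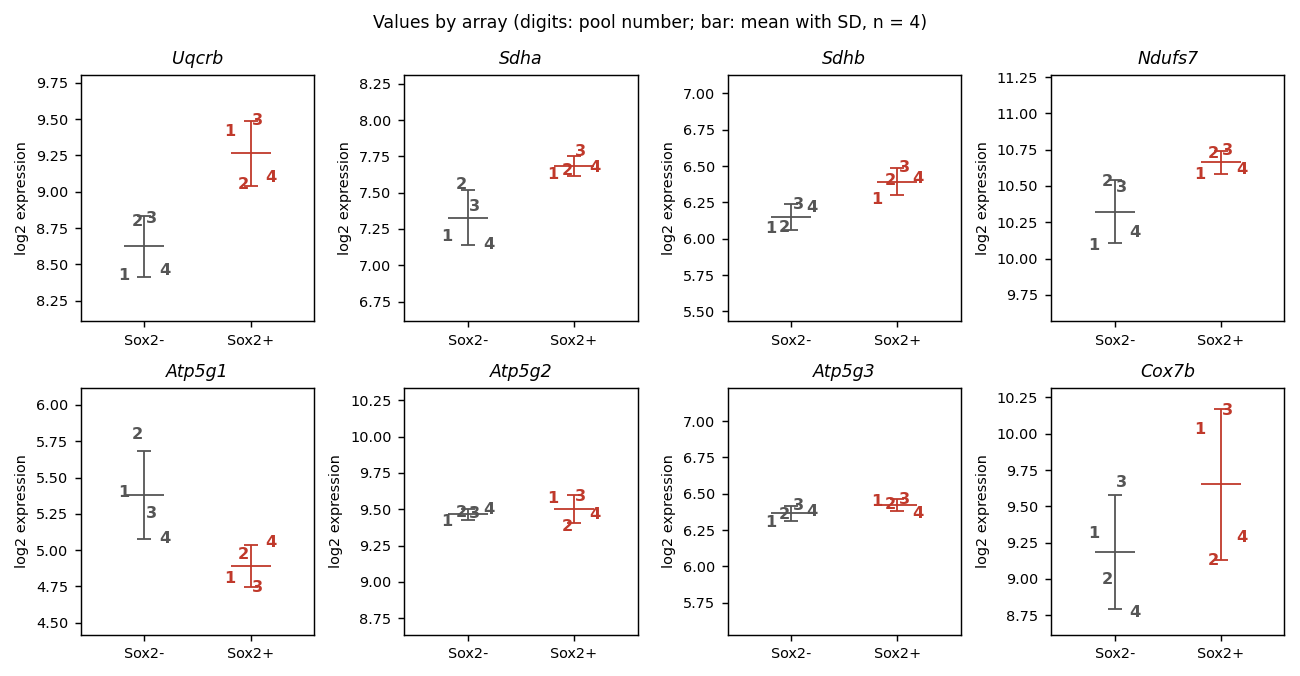
Log2 expression (y axis, panels spanning ranges of equal width) of 8 members by fraction; digits are pool numbers, bars the mean with SD (n = 4). Uqcrb, Sdha, Sdhb and Ndufs7 have no overlap with Sox2-positive pools above, Atp5g1 has none with Sox2-negative pools above, Atp5g2 and Atp5g3 overlap, and Cox7b varies with the pool number in both fractions.

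Promoters of the members differed from those of other genes in motifs that the choice by symbol did not use. A RefSeq window was at hand for 72 of the 88 genes, and each was searched on both strands. The NRF1 motif was in the window of 17 of 72 members (23.6%), against 7.68% of 15358 protein-coding genes tested. The ETS core CCGGAAG was in 19 (26.4%, against 13.3%) and the YY1 motif in 4 (5.6%, against 1.11%). The Sp1 core GGGCGG was in 34 (47.2%, against 51.8%) and CCAAT in 30 (41.7%, against 41.9%). Matches to different motifs shared bases in 1 of 77 windows. The members with an NRF1 match had a median log2 difference of 0.11 and 13 of 17 above 0, and the 55 without had a median of 0.04 and 35 above 0. Both kinds held members at each end, as Sdha, Ndufa11 and Ndufaf5 carried the motif. These shares are a description, with no test.

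Brighter members had larger positive differences than dimmer ones. Of the 65 members with both group means at or above the receptor genes' upper quartile, 50 (76.9%) had a difference above 0, with a median of 0.11, against 45.6% and -0.02 for the 10898 genes at that level. Of these members, 19 were higher and 1 lower at an unadjusted p under 0.05, against 14.8% and 11.7% of the genes at that level. The other 23 members had a median of -0.001 and 11 above 0. For the 20 members with a mean of 8 or more, a level chosen after the data were seen, 19 were above 0, with a median of 0.25, against 48.6% and -0.01 of 1259 such genes. The exception was Atp5l, subunit g of the ATP synthase. In the adjusted test 1 of these 20 members passed, Uqcrb, against 20.4% of such genes. For members above the median level of all genes, the centred array medians were 0.02, 0.03, 0.22 and 0.01 in Sox2-positive pools 1 to 4. In Sox2-negative pools 1 to 4 they were -0.13, 0.05, 0.02 and -0.16, so the fractions overlapped. The genes share the same arrays, so a count of genes above 0 is not a count of independent results.

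**Figure D4:**
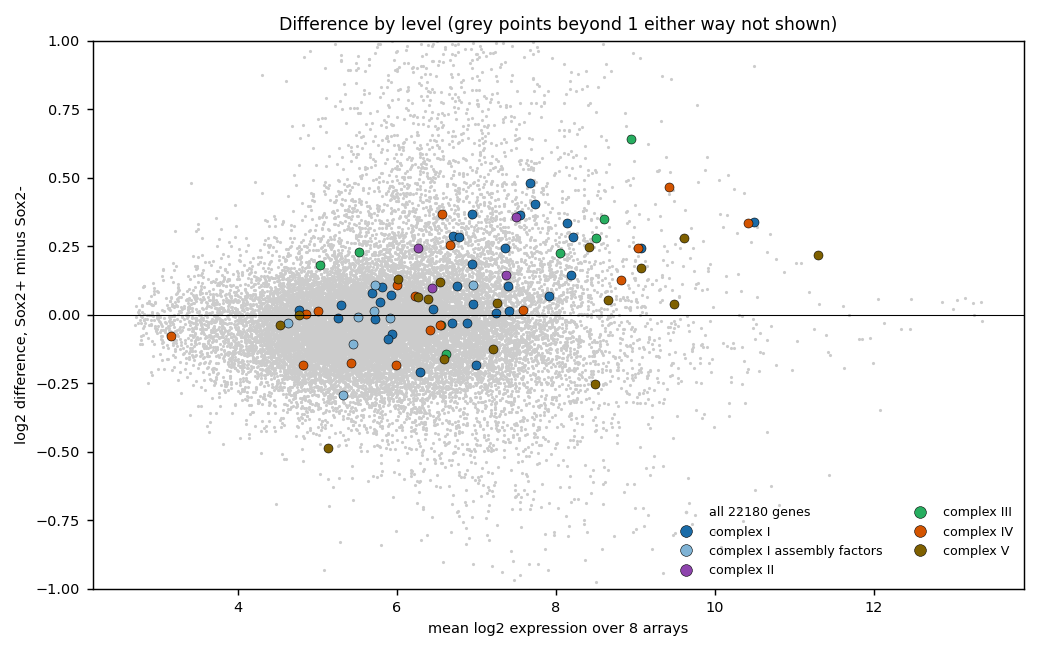
Log2 difference (y axis, Sox2-positive minus Sox2-negative) against the mean log2 expression over 8 arrays (x axis); grey points are the other genes within 1 either way, coloured points the 88 members by complex. Of the 20 members at a mean of 8 or more, 19 lie above 0, and none of the 88 lies beyond 1 either way.

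Other mitochondrial genes, from lists chosen by function, are described next. Of 21 regulators of mitochondrial biogenesis and keepers of mitochondrial DNA, 1 was higher and 1 lower, with a median of -0.09. The higher one was Ppargc1a, which encodes PGC-1alpha, at 6.28, 6.30, 6.54 and 5.84 in Sox2-positive pools, against 5.23, 5.53, 5.17 and 5.12 in Sox2-negative pools. Its fractions did not overlap, and it was 1.97-fold higher (log2 difference 0.98, SE 0.14, limma adjusted p = 0.000412), more than any respiratory chain member, and passed in each of 14 alternatives that held it. The lower one was Ssbp1, which binds single-stranded mitochondrial DNA (log2 difference -0.44, adjusted p = 0.0488), a call made in 3 of 15 alternatives, which ended without any 1 array other than Sox2-negative pool 3 (0.0663 to 0.149) and with the replicate block (0.0545). Of 19 electron carriers and quinone enzymes, 1 was higher and 0 lower (median 0.06). This was Etfb, a subunit of the flavoprotein that feeds electrons from fatty acid oxidation into the chain, 1.52-fold higher (log2 difference 0.60, adjusted p = 0.0142), without overlap. Its call ended without Sox2-negative pool 1 (0.0525).

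In the other mitochondrial lists, 0 or few genes passed. None of 10 subunits encoded in mitochondrial DNA passed (median 0.05), and the most different was ND6 (log2 difference -0.38, adjusted p = 0.0974, 0.0168 without Sox2-negative pool 3), which is encoded on the opposite strand to the others. For assembly factors outside the symbol rule it was 0 of 38 (median -0.01, largest difference Coa4, -0.32, adjusted p = 0.138). It was 0 of 16 for the tricarboxylic acid cycle and pyruvate dehydrogenase (median 0.10; Idh3b, 0.25, adjusted p = 0.232), and 0 of 19 for import and inner membrane carriers (median 0.01; Slc25a4, 0.28, adjusted p = 0.303). At an unadjusted p under 0.05 in limma, these 4 lists had 1, 6, 2 and 0 genes. Their shares were 10%, 15.8%, 12.5% and 0%, each below the 20.1% of all genes. Of 71 mitochondrial ribosomal proteins, 1 was higher (Mrpl23, log2 difference 0.38, adjusted p = 0.0435) and 1 lower (Mrps16, -0.32, adjusted p = 0.0484), with a median of 0.01. The call of Mrpl23 ended without any 1 array other than Sox2-positive pool 4 (0.0573 to 0.138) and that of Mrps16 without any 1 other than Sox2-positive pool 1 (0.0601 to 0.145). With its probe sets averaged, Mrps16 differed by -0.15 (0.406).

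Markers of oligodendrocyte progenitors, astrocytes and granule neuron progenitors moved with the fractions. For the other cell types listed, the mean levels of the fractions overlapped. All are given beside the members. Of 9 oligodendrocyte progenitor genes, 9 were higher in Sox2-positive pools, with Olig1 16.1-fold, Cspg5 14.8-fold and Olig2 10.9-fold higher, and their mean level was 8.55 to 9.17 against 6.20 to 6.27. Of 12 astrocyte genes, 9 were higher and 0 lower, with Slc1a3 4.46-fold, Clu 3.02-fold and Hepacam 2.91-fold higher, and a mean level of 7.17 to 7.87 against 6.39 to 6.50. Of the 11 granule neuron progenitor genes, Cntn2, Nhlh1 and Nhlh2 fell most, by 1.49, 1.35 and 1.13 on the log2 scale. The part of these lineages in the differences of the respiratory chain genes was not tested, and a change in the share of a cell type cannot be told apart from a change in RNA per cell. For microglia and macrophages 0 of 19 genes passed, with a mean level of 5.54 to 5.63 against 5.51 to 5.70 (largest difference Ctss, -0.26). For endothelial cells it was 0 of 11, at 5.16 to 5.23 against 5.21 to 5.37 (Tek, -0.28), and for red blood cells 0 of 2, at 5.09 to 5.16 against 4.83 to 5.19 (Slc4a1, 0.14). Of 12 pericyte genes, 1 was higher, Rgs5 (log2 difference 0.37, adjusted p = 0.0174), and the list's mean level overlapped, at 5.75 to 5.80 against 5.73 to 5.84. The call of Rgs5 ended without Sox2-positive pool 4 (0.0571) and when its probe sets were averaged (0.252).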

How the data were processed

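Expression was measured in 8 pools, 4 per fraction. The deposited table holds log2 expression by probe set, which the authors computed by RMA in Affymetrix Expression Console 1.2.0.20, per the submitters' processing notes. That the unit is log2 was inferred from the range of 2.51 to 13.6. RMA compresses differences of dim genes. The genome build of the array design is not given in the sources used here.

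Of 41345 probe sets, 23521 had 1 gene symbol in the platform annotation. For genes with several, the one with the highest mean over 8 arrays was used, which left 22180 genes. A further 10 probe sets shared by a member and another gene were not used. Of 9 members with 2 probe sets, the dimmer one differed in sign for 5 (Atp5e, Atp5h, Cox7b, Ndufa11 and Ndufa8).

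Differences were tested in R 4.3.3 with limma 3.58.1 (group as the only term, lmFit and eBayes, two-sided), with Benjamini-Hochberg adjustment over all genes at 0.05, and the procedure was tested on simulated data. The p-values measure the spread between pools of 3 tumours. Lists are described by counts and medians, with no test. The members, the lists and the tests were chosen with earlier results of these data known, and the mitochondrial ribosomal list and the levels by brightness were added after the values were seen.

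Named genes were every member past the threshold, the 2 largest positive and 2 largest negative differences of each complex, tissue isoforms with their partners, catalytic subunits, and from each other list up to 3 genes past the test or the largest. Further members were named for fractions that did not overlap or for the blocked fit, after their values were seen. Nrf1 was named as the gene of a factor whose motif was searched, also after its values were seen. It was not followed over the alternative fits.

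The labels give the same pool numbers in both fractions without saying that they share tumours. Deviations from the group means correlated at 0.164, 0.114, 0.177 and 0.241 between pools of equal number, all over 0.1. Between others they correlated at most at 0.161, which is above the 0.114 of number 2. The numbers were taken to pair the pools on this evidence of the data, which is weaker for number 2. The reported fit has no block, as the labels state no pairing, so its intervals and p-values leave the pairing out. The blocked share of members past the test is given beside the unblocked one, and the blocked value of a gene where it changed a call.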

Additional observations from a re-analysis of the deposited data

Results flagged for a closer look

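Of 116 groups of 4 values examined (members described by name and the complexes, in each fraction), 7 held a value far from the other 3, where chance gives about 1 in 20. Sox2-positive pool 4 had 5.28 for Ndufaf5, against 5.14 to 5.15 in the other Sox2-positive pools. Sox2-negative pool 2 had 8.51 for Atp5h, against 8.21 to 8.23. Sox2-positive pool 1 had 6.62 for Sdhd, against 6.44 to 6.47. Sox2-positive pool 3 had 8.61 for Ndufa3, against 8.2 to 8.24, and 7.21 for Ndufs3, against 6.89 to 6.90. By complex, the centred median of complex II was 0.248 in Sox2-positive pool 3, against 0.0591 to 0.0874, and that of complex IV was -0.0283 in Sox2-positive pool 2, against 0.0324 to 0.042. The causes were not tested.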

How the results depend on the processing

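Of 15 alternatives, the replicate block gave the most members past the test, 8 higher and 1 lower. With quantile normalization, with arrays centred on their median and with a variance trend, 1 member was higher. With quantile normalization, with centring and with dimmer genes left out, 0 were lower (limma; 1 to 5 lower at an unadjusted p under 0.05). With dimmer genes left out, Atp5g1 was itself not among the genes tested, so it could not be called there. Leaving out 1 array at a time gave 1 to 5 higher, the 5 without Sox2-negative pool 2, and 0 to 1 lower. Uqcrb passed in each of the 15, Sdha in 5 of 15 and Atp5g1 in 6 of 14. The median of complex IV moved from 0.02 to 0.12 with dimmer genes left out, as fewer genes were tested. Leaving out 1 array, the median over all members ran from 0.04 (without Sox2-positive pool 3) to 0.08, and no array turned the sign of the median of complex I, II, III, IV or V. Their size moved: complex I went from 0.08 to 0.03 without Sox2-positive pool 3 and to 0.13 without Sox2-negative pool 2, complex V from 0.05 to 0.0085 without Sox2-positive pool 3, and complex IV from 0.02 to 0.07 without it. The median of the assembly factors ran from -0.05 to 0.03. Besides the members named for the block, Ssbp1 lost its call with it (adjusted p = 0.0545), and no other named gene followed over the alternatives changed its call with it. Fits without 1 array have 7 arrays, and the causes of lost calls were not tested. Differences of members near the level of the receptor genes are limited by signal over background.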
